A study of Mus musculus with 4 samples.

Results

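Expression of 10 genes of the unfolded protein response and the integrated stress response was examined in RNA-Seq libraries of group 2 innate lymphoid cells (ILC2s) sorted from mouse lungs. The genes were *Hspa5*, *Hsp90b1*, *Calr*, *Pdia4*, *Dnajb9*, *Sdf2l1*, *Herpud1*, *Atf4*, *Ddit3* and *Trib3*. They were chosen by name as members of these pathways. Each symbol matched 1 gene of the 49315 in the deposited count table, and all 10 were among the 14840 genes compared, those that reached a CPM of 1 in some library. CPM here is a read count per common library size, with sizes scaled by TMM factors.

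The study asked how ILC2s take part in the lung fibrosis of Hermansky-Pudlak syndrome, and its *Hps1*-/- mice carry a null mutation of *Hps1*, a gene of lysosome-related organelle biogenesis, in every cell. Lungs of wild-type C57BL/6 mice given PBS (PBS-WT), *Hps1*-/- mice given PBS (PBS-HPS1), wild-type mice given bleomycin (BLEO-WT) and *Hps1*-/- mice given bleomycin (BLEO-HPS1) each gave 1 library, 4 in all. Both genotypes share the C57BL/6 background. The cells were depleted of other lineages, sorted on Thy1, ICOS and the IL-33 receptor ST2, and then cultured with IL-2 in all 4 groups, so the RNA is that of cultured cells. Bleomycin damages lung epithelium and is followed by fibrosis. Its route for these libraries, the time after it, the age of the mice and how many were pooled are not given in the sources used here.

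The endoplasmic reticulum (ER) folds secreted and membrane proteins, and unfolded protein there activates the sensors IRE1, PERK and ATF6. IRE1 splices *Xbp1* mRNA and ATF6 is cleaved to a transcription factor, and both then drive genes of chaperones and of ER-associated degradation. PERK phosphorylates eIF2alpha, as do other kinases of the integrated stress response, which lowers translation in general while that of ATF4 goes up. ATF4 in turn induces CHOP (encoded by *Ddit3*) and TRIB3. In lymphocytes the pathway is best known from plasma cells, which secrete antibody, and ILC2s secrete type 2 cytokines.

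Total counts were between 72513619 and 87638154 per library, and the level of 3 reads lay between 0.0303 and 0.0475 CPM. The 10 genes had between 267 and 96300 reads in a library. Counting error is therefore small if reads are independent, at most 0.23 on the log2 scale either side of a ratio. Each group is a single library, with no replicate to check it. The spread between mice cannot be estimated, and differences are given without p-values. Intervals below are exact 95% intervals (Clopper-Pearson) that cover counting error only. Ratios are also given with a sequence correction, in which a local fit on transcript length and GC content was subtracted, because ratios between these libraries followed both. *Hps1* itself was at 38.3 and 48.4 CPM in the wild-type libraries without and with bleomycin and at 16.6 and 21.3 in the *Hps1*-/- libraries, so it was lower in the latter under both treatments.

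Levels listed without group names follow the order PBS-WT, PBS-HPS1, BLEO-WT, BLEO-HPS1. The genes of the sort markers and of the ILC2 transcription factor GATA3 were present, with *Thy1* at 306, 206, 224 and 551 CPM, *Gata3* at 38.4, 39.1, 25.1 and 26.9, *Icos* at 79.9, 77.5, 51.4 and 32.1 and *Il1rl1*, which encodes ST2, at 40.9, 39.9, 37.3 and 23.8. Type 2 cytokine mRNA was low, with *Il5* between 0.293 and 1.06 CPM and *Il13* between 0.269 and 1.43. RNA of other cell types was present too. Each of the 7 lists of markers of other cells had reads on all its genes in every library. The 10 macrophage and monocyte markers summed to 11692, 7746, 19927 and 20108 CPM against 937.5, 818, 1215 and 1251 for 14 genes listed for ILC2s. These 14 include *Mcub* (43.3, 26.9, 67.5 and 78.7), taken by a shared alias in place of *Areg*, which may not mark ILC2s. They also include *Arg1*, at 8.34, 4.59, 387 and 257. The median log2 ratio of the ILC2 list with bleomycin was -0.27 in wild-type and -0.54 in *Hps1*-/- libraries, below 0 although the sum was higher. The levels below are therefore those of the sorted and cultured preparations, in which more cells of a type and more RNA per cell cannot be told apart.

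The summed level of the 10 genes was nearly the same in the 4 libraries. It was 3003 and 3135 CPM in PBS-WT and PBS-HPS1, and 3019 and 2967 in BLEO-WT and BLEO-HPS1. The genes beneath that sum differed in opposite directions. *Hspa5*, *Hsp90b1* and *Dnajb9* were highest in PBS-HPS1 and lowest in BLEO-HPS1, while *Calr*, *Sdf2l1* and *Herpud1* were lowest in PBS-HPS1 and highest in BLEO-HPS1, although with total counts alone none of these 3 was lowest in PBS-HPS1. *Herpud1* then took 0.0148%, 0.0173%, 0.0147% and 0.0146% of the reads (PBS-WT, PBS-HPS1, BLEO-WT, BLEO-HPS1), highest in PBS-HPS1 and lowest in BLEO-HPS1. In the first trio, a correction for transcript GC content and length turned the ratio of BLEO-WT to PBS-WT from -0.01 to 0.23 for *Hspa5* and from -0.42 to 0.28 for *Dnajb9*. In the second, it turned the ratio of PBS-HPS1 to PBS-WT from -0.05 to 0.06 for *Sdf2l1* and from -0.01 to 0.003 for *Herpud1*. It also turned that of BLEO-HPS1 to BLEO-WT from 0.13 to -0.18 for *Herpud1*. Both shared orders therefore hold without that correction only. With TMM factors the full order of the 4 libraries was the same within each trio, an order shared by 11.2% of the genes compared for the first trio and by 27.7% for the second. As a share of all reads, which TMM factors do not touch, the 10 genes took 0.323%, 0.399%, 0.270% and 0.242%.

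Per kilobase of transcript, the scale on which levels of different genes can be set side by side, *Calr* had the highest level of the 10 in every library, between 333 and 575.5 CPM per kilobase. *Hspa5* followed at 180.3 to 309.5, *Hsp90b1* at 92.4 to 226.5 and *Atf4* at 159 to 186. *Herpud1* was at 71.1 to 93.8, *Sdf2l1* at 67.6 to 170, *Pdia4* at 60.5 to 71.3, *Ddit3* at 31.3 to 35.8 and *Dnajb9* at 16.1 to 44.9. *Trib3* was far below the rest at 1.69 to 3.88. The chaperone gene *Hsp90b1* was above the transcription factor gene *Atf4* in both PBS libraries, at 222 and 226.5 against 164 and 166, and below it in both bleomycin libraries, at 139 and 92.4 against 186 and 159. With the sequence correction the log2 ratios of bleomycin to PBS were -0.26 for *Hsp90b1* and 0.02 for *Atf4* in wild-type libraries. In *Hps1*-/- libraries they were -0.31 and -0.68. The change of order was therefore seen without that correction only.

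**Figure D1:**
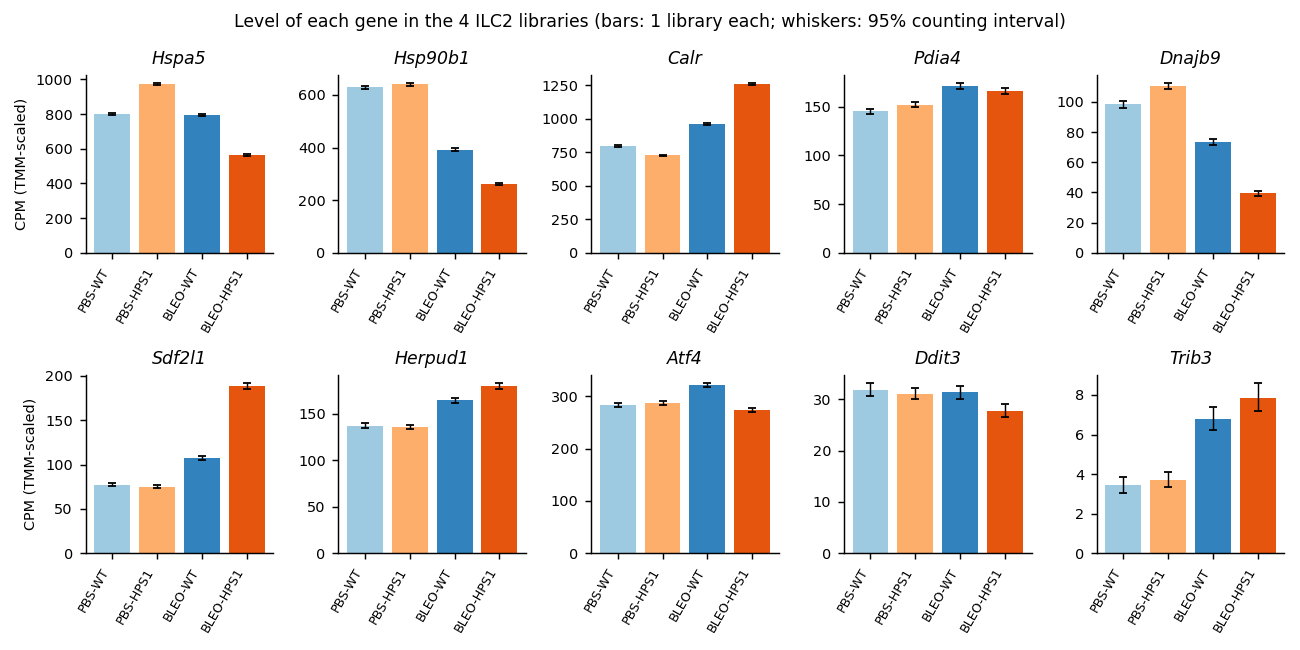
CPM (TMM-scaled, y axis of each panel starting at 0) of each of the 10 genes in the 4 libraries. Each bar is 1 library and whiskers are 95% counting intervals, and the bars fall toward BLEO-HPS1 for *Hsp90b1* (628 to 261) and *Dnajb9* (98.3 to 39.5) and climb for *Sdf2l1* (77.4 to 188) and *Calr* (799 to 1257).

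The promoters of the genes were searched because ATF6 and XBP1 act through known elements, the ER stress response element (ERSE, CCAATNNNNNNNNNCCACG), ERSE-II (ATTGGNCCACG) and the unfolded protein response element core (UPRE, TGACGTG), and ATF4 through the C/EBP-ATF response element (CARE, TGATGNAA). RefSeq windows of GRCm38.p6 were read on both strands over the 250 bases before the start site, and all 10 genes had one. ERSE was found in 37 of 32851 windows (0.113%), and 3 of these belong to *Hspa5*, *Calr* and *Hsp90b1*. ERSE-II was in 10 windows (0.0304%), that of *Herpud1* among them. UPRE was in 542 windows (1.65%), including *Hspa5*, and CARE in 1134 (3.45%), including *Herpud1*. The windows of *Pdia4*, *Dnajb9*, *Sdf2l1*, *Atf4*, *Ddit3* and *Trib3* held none of these letters, which says nothing of the factors there.

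The stretches upstream of the first annotated exon of the 4 genes with a match are given below, 5′ to 3′ on the strand of the gene, with the matched letters in capitals. They are chr2:34771840-34771969 (plus strand) for *Hspa5*, chr8:84846935-84847181 (minus strand) for *Calr*, chr10:86705510-86705694 (minus strand) for *Hsp90b1* and chr8:94386179-94386428 (plus strand) for *Herpud1*.
Hspa5: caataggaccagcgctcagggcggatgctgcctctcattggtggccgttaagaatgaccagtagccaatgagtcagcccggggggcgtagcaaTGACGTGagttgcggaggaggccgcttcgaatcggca
Calr: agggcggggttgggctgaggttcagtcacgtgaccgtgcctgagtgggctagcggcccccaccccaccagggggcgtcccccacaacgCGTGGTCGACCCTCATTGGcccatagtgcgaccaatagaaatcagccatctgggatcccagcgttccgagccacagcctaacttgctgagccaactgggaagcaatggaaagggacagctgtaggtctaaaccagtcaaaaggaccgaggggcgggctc
Hsp90b1: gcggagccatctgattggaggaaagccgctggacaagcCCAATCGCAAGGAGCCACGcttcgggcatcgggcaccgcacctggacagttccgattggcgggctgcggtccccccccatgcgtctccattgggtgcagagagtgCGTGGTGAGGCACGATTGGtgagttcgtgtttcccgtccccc
Herpud1: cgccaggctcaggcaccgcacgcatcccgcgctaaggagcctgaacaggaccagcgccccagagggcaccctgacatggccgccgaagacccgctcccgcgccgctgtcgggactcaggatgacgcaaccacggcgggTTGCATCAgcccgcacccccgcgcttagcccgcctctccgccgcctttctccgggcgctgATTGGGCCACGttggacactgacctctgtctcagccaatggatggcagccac

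The capitals are UPRE in *Hspa5*, ERSE on the opposite strand in *Calr*, ERSE on each strand in *Hsp90b1*, and CARE on the opposite strand followed by ERSE-II in *Herpud1*. *Hspa5* also holds an ERSE, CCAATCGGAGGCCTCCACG, which begins 65 bases before its start site within an exon of a longer transcript. The matches begin 162 bases before the start in *Calr*, 212 and 107 bases in *Hsp90b1* and 52 bases for ERSE-II in *Herpud1*.

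Among the ER-resident folding factors, *Hspa5* (ENSMUSG00000026864, chromosome 2 from 34771970 to 34777547 of GRCm38) encodes BiP, the HSP70 chaperone that also holds the ER sensors inactive. Its CPM was 800 and 973 in PBS-WT and PBS-HPS1, and 792 and 567 in BLEO-WT and BLEO-HPS1. PBS-HPS1 was the highest and BLEO-HPS1 the lowest, and the wild-type libraries with and without bleomycin were within counting error of each other. The log2 ratio of BLEO-HPS1 to PBS-HPS1 was -0.78 (-0.80 to -0.76), and that of BLEO-WT to PBS-WT was -0.01 (-0.03 to 0.00). With the sequence correction these were -0.02 and 0.23.

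*Hsp90b1* (ENSMUSG00000020048, chromosome 10 from 86690209 to 86705509) encodes GRP94, the HSP90 of the ER, which folds integrins and Toll-like receptors. Its CPM was 628, 640, 392 and 261. Both bleomycin libraries were below both PBS libraries, whose levels were close. Bleomycin libraries had a log2 ratio to PBS of -0.68 (-0.70 to -0.66) in wild-type and -1.29 (-1.32 to -1.27) in *Hps1*-/- libraries. BLEO-HPS1 was thus 2.45-fold below PBS-HPS1 as scaled, and with the sequence correction the ratio was -0.31, under 2-fold.

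*Dnajb9* (ENSMUSG00000014905, chromosome 12 from 44205559 to 44210326) encodes ERdj4, a co-chaperone of BiP and a target of spliced XBP1. It was at 98.3, 110, 73.3 and 39.5 CPM. The order was that of *Hspa5* and *Hsp90b1*, with the lowest level in BLEO-HPS1. Against PBS, the log2 ratio with bleomycin was -0.42 (-0.47 to -0.37) in wild-type libraries, where the sequence correction turned it to 0.28, and -1.48 (-1.55 to -1.42) in *Hps1*-/- libraries, where the correction left -0.13. Against BLEO-WT, the ratio in BLEO-HPS1 was -0.89 (-0.96 to -0.82).

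*Calr* (ENSMUSG00000003814, chromosome 8 from 84841850 to 84846934) encodes calreticulin, a calcium-binding lectin chaperone for glycoproteins. Its CPM was 799, 727.5, 959 and 1257. The 2 bleomycin libraries were above the 2 PBS libraries, and BLEO-HPS1 was the highest. With bleomycin the log2 ratio to PBS was 0.26 (0.25 to 0.28) in wild-type libraries, or -0.0017 with total counts alone, and 0.79 (0.77 to 0.80) in *Hps1*-/- libraries. That of BLEO-HPS1 to BLEO-WT was 0.39 (0.38 to 0.41).

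*Sdf2l1* (ENSMUSG00000022769, chromosome 16 from 17130138 to 17132383) encodes a small protein that works with ER DNAJ co-chaperones to keep clients soluble. It was at 77.4, 74.9, 107.5 and 188 CPM. PBS-WT and PBS-HPS1 were within counting error, and both bleomycin libraries were higher. Bleomycin libraries had a log2 ratio to PBS of 0.47 (0.43 to 0.52) in wild-type and 1.33 (1.29 to 1.37) in *Hps1*-/- libraries, the highest of the 10 genes in the latter comparison.

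*Pdia4* (ENSMUSG00000025823, chromosome 6 from 47796141 to 47813430) encodes ERp72, a protein disulfide isomerase. Its CPM was 145, 152, 171 and 166, and the highest library was 1.18-fold above the lowest. Neighbours in this order differed by more than counting error, but the order depended on the scaling. Between the bleomycin libraries the log2 ratio of *Hps1*-/- to wild-type turned from -0.04 to 0.02 with DESeq2 size factors, 0.06 with upper quartile factors and 0.19 with the sequence correction, and that of BLEO-HPS1 to PBS-HPS1 turned from 0.13 to -0.51 with total counts alone.

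The folding factors can also be set against each other within a library, which needs no scaling. Reads of *Hspa5* per read of *Calr* numbered 1.002 and 1.34 in PBS-WT and PBS-HPS1, and 0.827 and 0.451 in BLEO-WT and BLEO-HPS1. For *Hsp90b1* per read of *Calr* the values were 0.786, 0.879, 0.409 and 0.208. For the pair of small co-factors, reads of *Dnajb9* per read of *Sdf2l1* were 1.27, 1.47, 0.682 and 0.210. All 3 ratios were lowest in BLEO-HPS1, but such ratios still carry differences in GC content and length. Between PBS-HPS1 and BLEO-HPS1 the log2 change of *Hspa5* relative to *Calr* was -1.57, or -0.78 with the sequence correction, that of *Hsp90b1* relative to *Calr* was -2.08, or -1.06, and that of *Dnajb9* relative to *Sdf2l1* was -2.81, or -0.51.

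*Herpud1* (ENSMUSG00000031770, chromosome 8 from 94386438 to 94395377) encodes an ER membrane protein that helps assemble the ubiquitin ligase complex of ER-associated degradation. Its CPM was 137, 136, 164 and 179. The PBS libraries were within counting error and the bleomycin libraries above them. With bleomycin the log2 ratio to PBS was 0.26 (0.22 to 0.30) in wild-type and 0.40 (0.36 to 0.44) in *Hps1*-/- libraries, and with total counts alone it was -0.0056 and -0.24. With the sequence correction it was 0.17 and -0.01, and the ratio of BLEO-HPS1 to BLEO-WT turned from 0.13 to -0.18.

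The genes of the integrated stress response stayed closer together, with the exception of *Trib3*. *Atf4* (ENSMUSG00000042406, chromosome 15 from 80255184 to 80257541) encodes the transcription factor whose translation the response raises, so its mRNA level does not measure its activity. Its CPM was 283, 287, 321 and 274. The PBS libraries were within counting error, and the highest library was 1.17-fold above the lowest. Against PBS, the log2 ratio with bleomycin was 0.18 (0.16 to 0.21) in wild-type libraries, or -0.08 with total counts alone, and -0.07 (-0.10 to -0.04) in *Hps1*-/- libraries.

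*Ddit3* (ENSMUSG00000025408, chromosome 10 from 127290774 to 127296288) encodes CHOP, a transcription factor tied to cell death in long ER stress. It was at 31.9, 31.1, 31.4 and 27.8 CPM. The first 3 of these libraries lay within counting error of their neighbours, and BLEO-HPS1 was the lowest, with a log2 ratio to PBS-HPS1 of -0.16 (-0.25 to -0.08). The 3′ end of *Ddit3* overlaps that of *Mars*, the methionyl-tRNA synthetase gene on the opposite strand, which had 4074, 4097, 5126 and 5897 reads. Whether strand was used in counting is not given in the sources used here, so the level of *Ddit3* is uncertain.

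*Trib3* (ENSMUSG00000032715, chromosome 2 from 152337422 to 152344032) encodes a pseudokinase induced by ATF4 and CHOP. It had 267, 368, 534 and 497 reads, or 3.43, 3.72, 6.81 and 7.87 CPM. The bleomycin libraries were above the PBS libraries in both genotypes, and the PBS libraries were within counting error. Bleomycin libraries had a log2 ratio to PBS of 0.99 (0.78 to 1.21) in wild-type and 1.08 (0.88 to 1.28) in *Hps1*-/- libraries. In the wild-type comparison 94.6% of the genes compared had a lower ratio than *Trib3*. Reads of *Trib3* per read of *Atf4* were 0.0121, 0.0129, 0.0212 and 0.0287, and reads of *Ddit3* per read of *Atf4* were 0.113, 0.108, 0.0979 and 0.102.

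The 4 comparisons of the design share libraries, so their values are given side by side and are not independent. Between the PBS libraries, which compare the genotypes without injury, 0 of the 10 genes passed 2-fold in either direction, where 2.16% of the genes compared were past 2-fold higher in PBS-HPS1 and 3.11% past 2-fold lower. The ratios ran from -0.13 for *Calr* to 0.28 for *Hspa5*, with a median of 0.02 against -0.19 for all genes compared. Injury in wild-type mice is compared in BLEO-WT and PBS-WT. There, 0 of 10 passed 2-fold in either direction, against 5.28% higher and 8.22% lower among all genes. The ratios ran from -0.68 for *Hsp90b1* to 0.99 for *Trib3*, with a median of 0.21 against 0.09.

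For BLEO-HPS1 against PBS-HPS1, the comparison of injury in *Hps1*-/- mice, 2 of 10 genes were past 2-fold on the higher side, *Sdf2l1* and *Trib3*, and 2 on the lower, *Hsp90b1* and *Dnajb9*. In the same comparison 26.2% of all genes were past 2-fold higher and 19.6% lower, so both shares of the 10 genes were near the background. The median was 0.03 against 0.25 for all genes. For BLEO-HPS1 against BLEO-WT, the comparison of the genotypes after injury, 0 of 10 genes passed 2-fold in either direction, against 6.72% higher and 10.3% lower. The ratios ran from -0.89 for *Dnajb9* to 0.81 for *Sdf2l1*, with a median of -0.11 against -0.04.

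**Figure D2:**
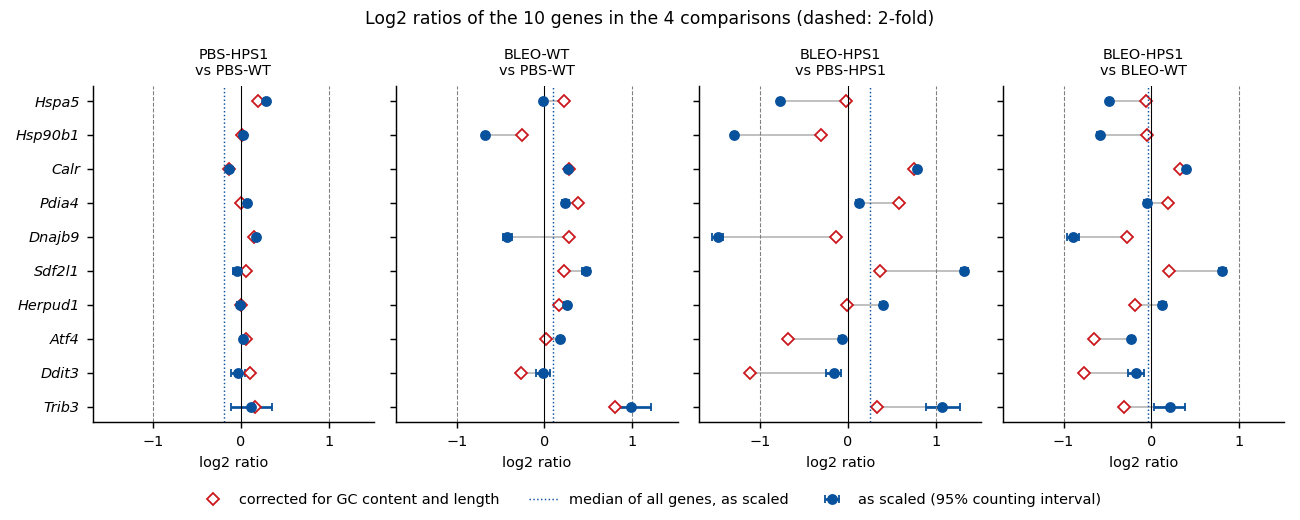
Log2 ratio (x axis) of each of the 10 genes in the 4 comparisons, as scaled (filled circles, with 95% counting intervals) and with the sequence correction (open diamonds), with 2-fold dashed and the median of all genes dotted. In BLEO-HPS1 against PBS-HPS1 the circles run from -1.48 for *Dnajb9* to 1.33 for *Sdf2l1*, and the diamonds of these genes lie at -0.13 and 0.37.

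Scaling moved some of these ratios across 0. With total counts alone in place of TMM factors the medians of all genes were 0.06, -0.18, -0.43 and -0.18 in the 4 comparisons, taken in the order above, and 11 of the 40 ratios of the 10 genes changed sign. *Herpud1* against PBS-HPS1 in BLEO-HPS1 was then at -0.24 and *Pdia4* at -0.51, above and below that median. *Calr*, *Sdf2l1* and *Trib3* stayed above 0 in this comparison at 0.15, 0.69 and 0.44, and *Hspa5*, *Hsp90b1* and *Dnajb9* stayed below it at -1.42, -1.94 and -2.13.

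In the 3 comparisons with a bleomycin library the direction of the ratios followed base composition, in the 10 genes as in all genes. Across the 14813 compared genes with a GC content and length, Spearman's rho of the log2 ratio with transcript GC content was -0.0734 between the PBS libraries and 0.550 between the bleomycin libraries. It was 0.437 for bleomycin against PBS in wild-type and 0.570 in *Hps1*-/- libraries. Across the 10 genes rho was -0.455 and 0.733 between genotypes and 0.721 and 0.782 for bleomycin against PBS, in the same order. These are descriptions across genes of the same libraries, and genes are not independent replicates. In the *Hps1*-/- comparison the 741 genes of lowest GC content, with a median of 39.1%, had a median ratio of -1.54, and the 741 of highest GC content, with a median of 61.4%, had 1.06.

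The 3 chaperone genes that were lower in BLEO-HPS1 have the lowest transcript GC contents of the set, 40.6% for *Dnajb9*, 43.8% for *Hsp90b1* and 46.4% for *Hspa5*. The 2 genes at least 2-fold higher are the most GC-rich, with 56.7% for *Sdf2l1* and 58.2% for *Trib3*. *Calr*, at 50.0%, lies close to the median of all genes, 50.6%. With the sequence correction, the log2 ratio of BLEO-HPS1 to PBS-HPS1 was -0.13 for *Dnajb9*, -0.31 for *Hsp90b1*, -0.02 for *Hspa5*, 0.37 for *Sdf2l1* and 0.33 for *Trib3*, against 0.32 for the median of all genes. All of these ratios were less than 2-fold in size.

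*Calr* kept its ratio with the correction, at 0.75 for BLEO-HPS1 against PBS-HPS1 and 0.33 for BLEO-HPS1 against BLEO-WT. In the wild-type comparison *Trib3* was at 0.80 and 91.9% of genes had a lower ratio. *Pdia4* was at 0.58 in the *Hps1*-/- comparison. The stress transcription factors, which had looked level, then lay below most genes. *Ddit3* was at -1.12 and *Atf4* at -0.68 in BLEO-HPS1 against PBS-HPS1, and at -0.76 and -0.65 in BLEO-HPS1 against BLEO-WT, where 8.72% and 11.8% of the genes compared had lower ratios. *Ddit3* is the shortest transcript of the 10, at 890 bases, and was the 1 gene of the set past 2-fold after the correction, lower in BLEO-HPS1 than in PBS-HPS1, where 8.55% of all genes were past 2-fold lower and 18.3% higher after it, so this count is near the background. Whether GC content and length themselves gave the uncorrected ratios was not tested.

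**Figure D3:**
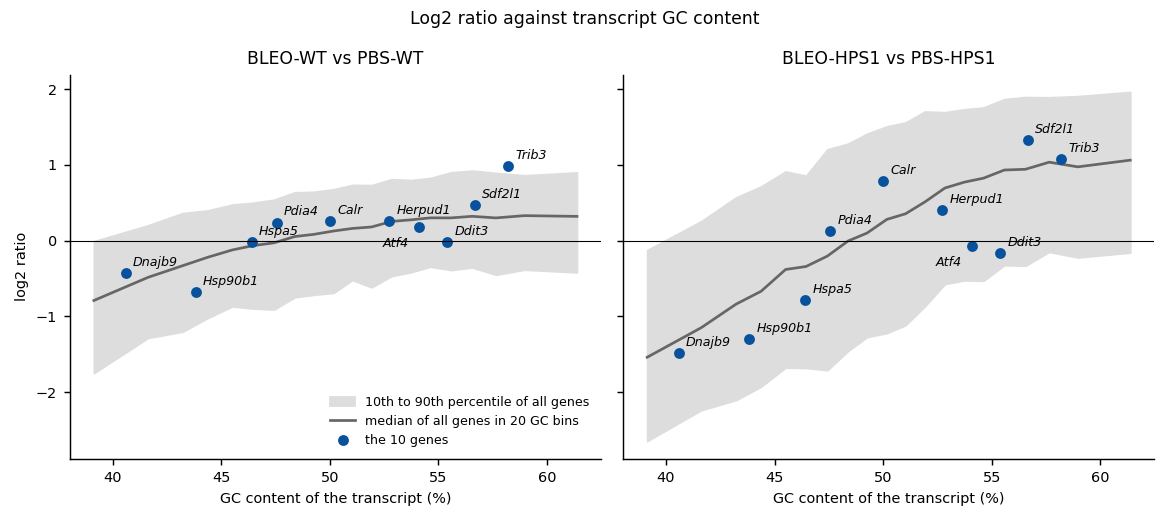
Log2 ratio (y axis) against transcript GC content in percent (x axis) for bleomycin against PBS in wild-type (left) and *Hps1*-/- (right) libraries, with the 10 genes as points over the median (line) and the 10th to 90th percentiles (band) of all genes in 20 bins of GC content. The line climbs from -1.54 to 1.06 on the right, *Dnajb9* and *Sdf2l1* sit inside the band on both sides, and *Trib3*, at 0.99, lies above it on the left.

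The 3 genes with an ERSE in their promoter windows did not share a direction, as BLEO-HPS1 had a log2 ratio to PBS-HPS1 of -0.78 for *Hspa5*, -1.29 for *Hsp90b1* and 0.79 for *Calr*. With the sequence correction the same ratios were -0.02, -0.31 and 0.75. A match of letters is a description of the sequence and no binding was measured.

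The design also asks whether bleomycin was followed by a different ratio in the 2 genotypes. The log2 ratio of bleomycin to PBS in *Hps1*-/- libraries minus that in wild-type libraries was -1.06 for *Dnajb9*, -0.77 for *Hspa5* and -0.62 for *Hsp90b1*, and 0.85 for *Sdf2l1* and 0.53 for *Calr*. The others lay between -0.25 for *Atf4* and 0.14 for *Herpud1*. For *Trib3* it was 0.09 (-0.20 to 0.38), so with TMM factors no difference beyond counting error was seen, while it was -0.29 with total counts alone and -0.47 with the sequence correction. The median of the 10 genes was -0.12 against 0.15 for all genes compared. With the correction the differences were -0.41 for *Dnajb9*, -0.25 for *Hspa5*, -0.05 for *Hsp90b1*, 0.15 for *Sdf2l1* and 0.47 for *Calr*, and those of *Ddit3* and *Atf4* were -0.86 and -0.70. *Pdia4* and *Herpud1* changed sign with it, from -0.11 to 0.20 and from 0.14 to -0.18. No difference between genotypes could be tested against the spread between mice.

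The wider pathway was described with 8 further lists of 129 genes, 128 of them compared. Of 10 sensors and transducers of the unfolded protein response, 0 passed 2-fold between the PBS libraries, and 3 passed it on the higher side and 1 on the lower in BLEO-HPS1 against PBS-HPS1. Among all genes 26.2% were higher and 19.6% lower there, so the higher count was near the background. *Xbp1*, which IRE1 splices, was at 250, 262, 254 and 324 CPM. Gene counts do not separate its spliced form. *Ern1*, which encodes IRE1, was at 60.3, 49.4, 65.2 and 44.2, and *Eif2ak3*, which encodes PERK, was at 54.2, 63.1, 64.6 and 38.6. Both sensor genes were lowest in BLEO-HPS1. *Eif2ak3* had a log2 ratio of -0.71 to PBS-HPS1 and -0.74 to BLEO-WT, and -1.15 and -1.06 with the sequence correction. *Atf6* was at 107, 70.8, 120 and 72.6 CPM, higher in both wild-type than in both *Hps1*-/- libraries, and with the correction the ratio of *Hps1*-/- to wild-type was -0.81 with PBS and -0.04 with bleomycin. The ratio of *Atf6* in BLEO-HPS1 to PBS-HPS1 was 0.04, and 1.32 with the correction. As scaled, *Wfs1* (1.26), *Creb3* (1.16) and *Atf6b* (1.10) were past 2-fold higher in BLEO-HPS1 than in PBS-HPS1. On the lower side was *Mbtps2*, a protease that cleaves ATF6 (-1.13). With the correction these were at 0.79, 0.51, 0.39 and 0.44. Of the 10 genes, 1 was then past 2-fold higher, *Atf6*, and 1 lower, *Eif2ak3*, against 18.3% and 8.55% of all genes.

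Among 22 other ER folding factors, 7 were past 2-fold higher and 2 past 2-fold lower in BLEO-HPS1 than in PBS-HPS1, and 1 was past 2-fold higher in BLEO-WT than in PBS-WT. In the first of these comparisons 26.2% of all genes were higher and 19.6% lower, so the higher count was near the background. In the second 5.28% of all genes were higher, so the count of 1 was near the background too. The gene higher in BLEO-WT was *Prdx4*, an ER peroxiredoxin, at 15.3, 10.3, 35.9 and 49.0 CPM. Its log2 ratio of bleomycin to PBS was 1.23 in wild-type and 2.24 in *Hps1*-/- libraries, and 1.13 and 1.77 with the correction. *Ppib*, the ER cyclophilin, was at 110, 81.1, 174 and 280 CPM, with a ratio of 1.79 in *Hps1*-/- libraries and 1.12 with the correction. The lower genes were *Hspa13* (-1.31) and *Dnajc3* (-1.17), which encode a small HSP70 and the BiP co-chaperone that also inhibits PERK, and with the correction they were at 0.11 and 0.25. The median of the list in this comparison was 0.28, and 0.52 with the correction, against 0.25 and 0.32 for all genes.

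The 23 genes of translocation and N-glycosylation, the machinery that brings new proteins into the ER, had a median of -0.26 between the PBS libraries, against -0.19 for all genes. In BLEO-HPS1 against PBS-HPS1, 10 of them were past 2-fold higher and 2 lower, and the median of the 23 was 0.95, against 26.2%, 19.6% and 0.25 for all genes. The higher genes were led by *Ssr4* (2.02), of the translocon-associated complex, and *Ddost* (1.82), of the oligosaccharyltransferase, and the lower were *Sec63* (-1.37) and *Sec62* (-1.06), which serve post-translational import. With the correction 9 were past 2-fold higher and 0 lower and the median was 0.87, against 18.3%, 8.55% and 0.32 for all genes. *Ssr4*, *Ddost*, *Sec63* and *Sec62* were then at 1.06, 1.24, 0.11 and 0.30. The 16 genes of ER-associated degradation had 2 past 2-fold higher, *Edem2* (1.32) and *Os9* (1.10), and 2 lower, *Edem3* (-1.78) and *Ubxn4* (-1.10). *Edem3*, which trims mannose from misfolded glycoproteins, was at 49.2, 54.7, 40.9 and 15.9 CPM and stayed past 2-fold with the correction, at -1.42 against PBS-HPS1 and -1.16 against BLEO-WT.

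For the integrated stress response, the 6 genes of eIF2alpha kinases and phosphatase subunits had 0 past 2-fold higher and 2 lower in BLEO-HPS1 than in PBS-HPS1. The lower were *Ppp1r15b* (-1.11), the constitutive phosphatase subunit, and *Eif2ak2* (-1.04), which encodes the kinase PKR, and the correction put them at -0.37 and 0.19. With the correction the counts turned to 2 higher, *Eif2s1* (1.43) and *Eif2ak1* (1.17), and 0 lower, against 18.3% and 8.55% of all genes. The median of the 6 was -0.45, and 0.04 with the correction. Of 25 compared targets of ATF4 and CHOP, 8 were past 2-fold higher and 1 lower in BLEO-HPS1 than in PBS-HPS1, with a median of 0.79. Among all genes 26.2% were higher and 19.6% lower, with a median of 0.25. With the correction 4 of the 25 were higher and 1 lower, with a median of 0.55. For all genes the corrected values were 18.3%, 8.55% and 0.32, so the corrected higher count was near the background. *Psat1* and *Shmt2*, enzymes of serine and glycine synthesis, had ratios of 1.76 and 1.66, and 2.03 and 1.003 with the correction. *Psat1* was at 24.6, 15.7, 36.8 and 53.3 CPM, highest in BLEO-HPS1. *Phgdh*, the first enzyme of the same serine pathway, was at 93.2, 68.9, 39.1 and 81.5 and so lowest in BLEO-WT. *Slc7a11*, a cystine transporter, was the lower gene as scaled at -1.11, and was at 0.28 with the correction. The lower gene with the correction was *Gdf15*, at -1.28. The 12 cytosolic aminoacyl-tRNA synthetases, many of them ATF4 targets, had a median of -0.32 between the PBS libraries, against -0.19 for all genes. In BLEO-HPS1, 5 were at least 2-fold higher than in PBS-HPS1, against 26.2% of all genes, led by *Sars* (1.46) and *Wars* (1.40). With the correction 2 passed 2-fold, *Sars* at 1.19 and *Wars* at 1.13, against 18.3% of all genes. That count was near the background.

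Heat shock proteins of the cytosol and mitochondria, a stress response outside the ER, had another pattern. Of 14 genes, 4 were past 2-fold higher in PBS-HPS1 than in PBS-WT, and the median of the 14 was 0.37, against 2.16% higher and a median of -0.19 for all genes. In BLEO-HPS1, 7 were past 2-fold lower than in PBS-HPS1, and the median of the 14 was -0.92, against 19.6% lower and a median of 0.25 for all genes. *Hsph1*, an HSP110 chaperone, was at 74.5, 186, 41.2 and 31.8 CPM, and its ratio of BLEO-HPS1 to PBS-HPS1 was -2.55, and -1.93 with the correction. *Hspa1b*, an inducible HSP70, was at 107.5, 304, 75.5 and 56.5, with a ratio of -2.43, and -3.01 with the correction. Its reads may be shared with its near-identical copy *Hspa1a*, which was also highest in PBS-HPS1. With the correction 4 of the 14 genes passed 2-fold in each of these directions, and the medians were 0.35 and -0.54. Among all genes 1.81% were then past 2-fold higher in the first comparison and 8.55% lower in the second, with medians of -0.23 and 0.32.

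**Figure D4:**
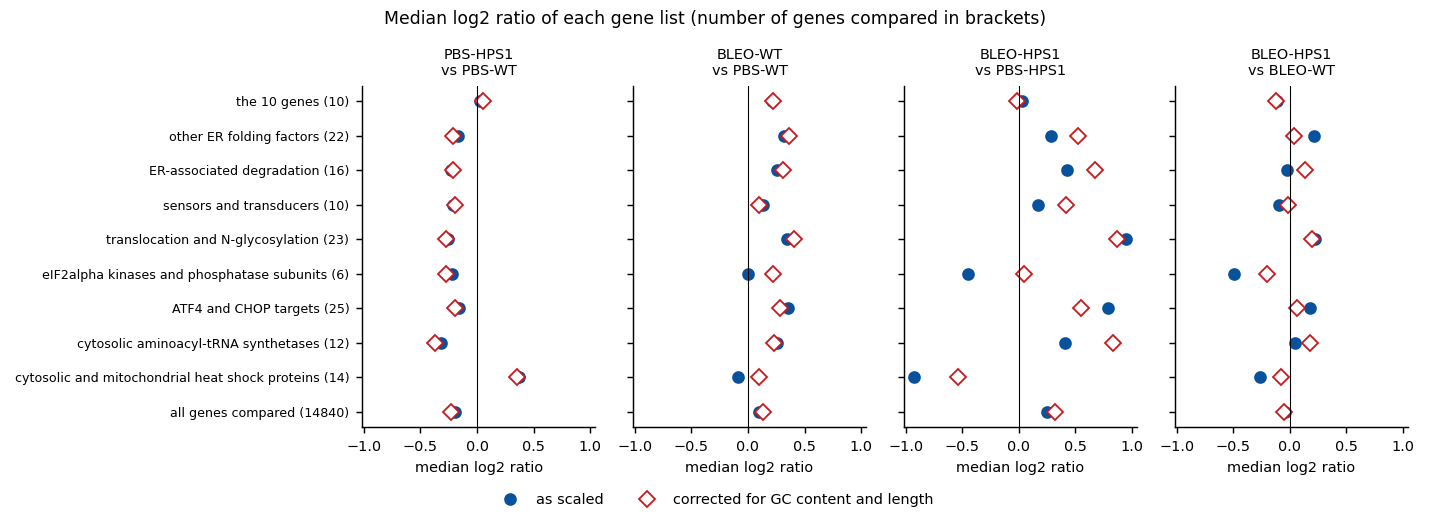
Median log2 ratio (x axis) of the 10 genes, 8 further lists and all genes compared (y axis, with the number of genes) in the 4 comparisons, as scaled (circles) and with the sequence correction (diamonds). In BLEO-HPS1 against PBS-HPS1 the translocation and N-glycosylation genes are highest at 0.95 and the heat shock proteins lowest at -0.92, with the 10 genes at 0.03.

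Markers of other cells differed in the same comparisons as the 10 genes. The 10 fibroblast markers summed to 240.5, 374, 629 and 2972 CPM, and 9 of the 10 were past 2-fold higher in BLEO-HPS1 than in either PBS-HPS1 or BLEO-WT. The 12 B and plasma cell markers, cells with an active unfolded protein response, summed to 1029, 593, 515.5 and 1720. In each comparison 8 were at least 2-fold higher in BLEO-HPS1, but not the same 8. Log2 ratios to PBS-HPS1 and BLEO-WT were 1.48 and -0.14 for *Tnfrsf13b* and 0.48 and 1.87 for *Jchain*. For both lists, the share of all genes past 2-fold higher was 26.2% against PBS-HPS1 and 6.72% against BLEO-WT. Of the 10 macrophage and monocyte markers, 6 were at least 2-fold higher with bleomycin in each genotype, though not the same 6, as *Cd163* had a log2 ratio of 2.00 in wild-type and 0.14 in *Hps1*-/- libraries and *Lyz2* 0.48 and 1.02. Among all genes 5.28% were at least 2-fold higher with bleomycin in wild-type and 26.2% in *Hps1*-/- libraries. *Mrc1* was past 2-fold lower in the *Hps1*-/- comparison, at -1.23. The 7 T cell markers summed to 644, 504, 545 and 884 CPM and the 5 endothelium markers to 617, 585, 531 and 671. *Calr* and *Sdf2l1* were highest in BLEO-HPS1. The fibroblast, B and plasma cell, macrophage and monocyte, T cell, endothelium and ILC2 marker sums were highest there too. The 6 lung epithelium markers summed to 1185, 840, 554 and 321 CPM. Of these, 4 were past 2-fold lower in BLEO-HPS1 than in PBS-HPS1, against 19.6% of all genes. *Hspa5*, *Hsp90b1* and *Dnajb9* were lowest in BLEO-HPS1 too. The 6 neutrophil markers summed to 1391, 408, 811 and 355.5, with 6 past 2-fold lower in PBS-HPS1 than in PBS-WT and 4 in BLEO-HPS1 than in BLEO-WT. Among all genes 3.11% and 10.3% were past 2-fold lower in these comparisons. By the study's methods the number of cells behind each library also differed, with fewest in PBS-WT, then PBS-HPS1, then BLEO-WT and most in BLEO-HPS1. The gate of the sort excluded cells with CD3, CD11b, B220, Ly6G or Ly6C and required Thy1, ICOS and ST2, which is meant to remove T cells, B cells, neutrophils and macrophages with CD11b. The part of these other cells and of the cell number in the ratios of the 10 genes was not tested.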

How the data were processed

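RNA-Seq was analysed for ILC2s from 4 groups of mice, with 1 library per group taken from the sample labels. RNA was extracted after sorting and culture and amplified with a SMARTER kit. The authors deposited raw counts, whole numbers of reads per gene without normalization. The aligner, counter, genome build, annotation and use of strand are not given in the sources used here. Positions, transcript lengths and GC content came from GENCODE M21 (GRCm38), where 48970 of the 49315 identifiers were found.

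Library sizes were scaled with TMM factors (edgeR 4.0.16, R 4.3.3), which were 1.08, 1.27, 0.895 and 0.816, in the order PBS-WT, PBS-HPS1, BLEO-WT, BLEO-HPS1. Log2 ratios used a prior count of 2, and genes that reached a CPM of 1 in some library entered. The quasi-likelihood test of edgeR needs replicates and could not be used, so differences are given by a 2-fold threshold. Clopper-Pearson intervals cover counting error only, and they may be too narrow for it, since PCR copies are not independent molecules. The sequence correction subtracted a local quadratic fit (span of 0.3) on GC content and log2 length and kept the median. The steps were checked on simulated data. Alternatives were DESeq2 size factors (1.42.0), total counts, upper quartile factors, TMM without immunoglobulin genes, a prior count of 0.5 or 10, no expression filter, a minimum of 10 counts per library, a 4-fold threshold and the correction. Genes outside the set were named if they lead a list in a comparison past 2-fold at a CPM of at least 10, or are sensors. The members and lists were chosen with earlier results of these data known.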

Additional observations from a re-analysis of the deposited data

Results flagged for a closer look

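The log2 ratio of bleomycin to PBS for *Atf4* had opposite signs in the genotypes, 0.18 in wild-type and -0.07 in *Hps1*-/- libraries, a difference of -0.25. With 1 library per group the difference was not tested. With total counts alone the wild-type ratio was -0.08 and the signs were the same, and with the sequence correction the ratios were 0.02 and -0.68.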

How the results depend on the processing

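The number of genes at least 2-fold higher in BLEO-HPS1 than in PBS-HPS1 went from 2 to 0 with total counts alone, with a 4-fold threshold and with the sequence correction. The number at least 2-fold lower went from 2 to 0 with a 4-fold threshold and to 1 with the correction. With total counts alone 1 gene was at least 2-fold lower in BLEO-HPS1 than in BLEO-WT, against 0 as reported, and the median difference of the bleomycin ratios between genotypes was -0.50 against -0.12. Among the 40 single ratios, the sign changed for 11 with total counts alone, 9 with the correction, 5 with upper quartile factors and 2 with DESeq2 size factors, and for 0 with the other prior counts, filters and the TMM factors without immunoglobulin genes. The largest move was 1.35 on the log2 scale, with the correction, and 0.64 with total counts alone. Total counts shift all genes of a comparison alike. With 1 library per group no replicate could be left out. No paired analysis was possible because each group has 1 library and the labels give no replicate numbers. Depth limited the ratios of *Trib3* most, with 267 reads in PBS-WT.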
